A study of Mus musculus with 6 samples.

Results

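Long noncoding RNA (lncRNA) genes were the closest annotated genes to 1513 of the 12105 genotype-specific chromatin peaks deposited for Mir137-deficient and control microglia. Of these, 1076 came from the 8615 peaks listed as specific to the conditional knockout (cKO) and 437 from the 3490 listed as specific to the control (cWT). A peak was taken when its midpoint lay outside every protein-coding gene span, at most 100 kb from an end of a coding gene, and when the nearest gene end of any kind belonged to a noncoding RNA gene. No measured value entered this choice. All genes so chosen carry the RefSeq biotype lncRNA, of which the mouse annotation used here lists 12731, with 0 genes of the biotype ncRNA.

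The chromatin was that of microglia, the resident macrophages of the brain, sorted from brains of C57BL/6J mice aged 8 weeks. Both genotypes carry Tmem119-CreERT2, a Cre recombinase that is made under the microglial gene Tmem119 and becomes active with tamoxifen. The cKO mice are Mir137 loxP/loxP and the cWT mice are Mir137+/+, so the controls also carry the Cre, and all mice received tamoxifen on 7 consecutive days from the age of 7 to 8 weeks. Accessible DNA was read by ATAC-seq, in which the transposase Tn5 inserts sequencing adapters into open chromatin. There were 3 libraries per genotype from about 50000 cells each, and the design states 4 mice without tying libraries to animals. The deposited lists give 1 value per peak and none per library, so the spread between replicates and the sequencing depth are unknown here, and neither the deletion of Mir137 nor the purity of single libraries could be checked. Intervals below are exact 95% intervals (Clopper-Pearson for shares and ratios, conditional for odds ratios) and cover counting error only, since neighbouring peaks are not independent.

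Noncoding RNA genes produce transcripts that are not translated. Some of these RNAs act in the nucleus, as scaffolds of nuclear bodies or regulators of whole chromosomes, and others are precursors of small RNAs such as microRNAs and snoRNAs. Many lncRNA genes start at or near enhancers and coding promoters, and such transcripts are often low and restricted to a cell type. An open region beside a lncRNA gene can therefore be the lncRNA's own promoter, a distal element of a neighbouring coding gene, or both. The lists do not tell these apart.

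The members that reach a lncRNA gene's own start are the ones for which a sequence around that start can be shown. Each line below holds the 300 bases from 250 before to 50 after a listed start, 5′ to 3′ on the gene's strand, from RefSeq for GRCm38.p6. The windows were picked for the lowest p-values in each list among members overlapping a start window, and for a gene of known function (Jpx). Added as examples of an AP-1 and a RUNX match were 8030442B05Rik and Gm41046, picked after the matches were seen. Capitals mark matches on either strand to 7 short motifs: PU.1 (GAGGAAGT), the wider ETS family (CCGGAAG), AP-1 (TGANTCA), RUNX (TGTGGTT), SP/KLF (GGGCGG), E-box (CACGTG) and the CCAAT box (CCAAT). The first 5 windows are overlapped by cKO-specific peaks and the last 4 by cWT-specific peaks.
Gm11205: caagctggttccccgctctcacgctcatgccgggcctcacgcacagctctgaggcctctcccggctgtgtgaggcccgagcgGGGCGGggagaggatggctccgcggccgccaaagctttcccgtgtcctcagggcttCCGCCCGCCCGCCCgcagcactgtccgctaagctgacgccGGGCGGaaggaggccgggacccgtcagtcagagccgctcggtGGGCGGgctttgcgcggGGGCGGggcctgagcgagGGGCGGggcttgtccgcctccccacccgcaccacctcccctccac
2810410L24Rik: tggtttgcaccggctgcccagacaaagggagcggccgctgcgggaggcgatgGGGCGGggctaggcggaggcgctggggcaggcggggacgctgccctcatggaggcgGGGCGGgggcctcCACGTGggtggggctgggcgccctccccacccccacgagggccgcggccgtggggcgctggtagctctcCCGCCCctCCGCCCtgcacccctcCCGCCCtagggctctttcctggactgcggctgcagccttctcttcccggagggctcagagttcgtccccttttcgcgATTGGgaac
Gm32046: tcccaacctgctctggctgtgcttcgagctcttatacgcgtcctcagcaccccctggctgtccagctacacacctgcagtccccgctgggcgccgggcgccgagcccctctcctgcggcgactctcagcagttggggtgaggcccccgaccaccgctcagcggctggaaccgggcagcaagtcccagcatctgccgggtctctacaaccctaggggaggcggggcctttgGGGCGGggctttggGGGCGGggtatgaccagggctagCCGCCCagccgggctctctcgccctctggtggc
8030442B05Rik: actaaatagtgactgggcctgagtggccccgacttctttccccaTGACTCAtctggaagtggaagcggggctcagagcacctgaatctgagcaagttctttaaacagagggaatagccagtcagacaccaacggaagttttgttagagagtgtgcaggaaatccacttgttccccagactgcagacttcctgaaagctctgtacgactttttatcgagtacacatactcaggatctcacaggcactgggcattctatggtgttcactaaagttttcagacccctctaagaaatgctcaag
Jpx: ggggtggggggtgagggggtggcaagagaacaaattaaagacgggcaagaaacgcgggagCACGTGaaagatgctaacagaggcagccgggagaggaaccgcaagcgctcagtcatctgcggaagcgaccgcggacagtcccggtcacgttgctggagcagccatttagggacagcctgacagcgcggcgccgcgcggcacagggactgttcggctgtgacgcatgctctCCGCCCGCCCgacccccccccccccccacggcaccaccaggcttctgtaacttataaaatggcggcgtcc
1700064M15Rik: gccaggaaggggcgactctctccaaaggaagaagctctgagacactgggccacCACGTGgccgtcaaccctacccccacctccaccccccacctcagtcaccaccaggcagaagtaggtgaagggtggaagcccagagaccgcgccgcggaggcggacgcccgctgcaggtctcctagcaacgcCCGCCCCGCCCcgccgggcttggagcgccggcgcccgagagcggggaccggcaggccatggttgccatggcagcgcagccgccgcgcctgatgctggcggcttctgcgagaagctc
Gm51458: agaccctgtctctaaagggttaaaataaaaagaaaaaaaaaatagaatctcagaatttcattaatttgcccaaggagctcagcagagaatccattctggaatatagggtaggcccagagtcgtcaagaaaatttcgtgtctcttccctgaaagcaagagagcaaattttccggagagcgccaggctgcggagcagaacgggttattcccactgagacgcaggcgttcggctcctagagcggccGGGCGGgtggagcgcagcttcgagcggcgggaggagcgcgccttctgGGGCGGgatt
Gm40913: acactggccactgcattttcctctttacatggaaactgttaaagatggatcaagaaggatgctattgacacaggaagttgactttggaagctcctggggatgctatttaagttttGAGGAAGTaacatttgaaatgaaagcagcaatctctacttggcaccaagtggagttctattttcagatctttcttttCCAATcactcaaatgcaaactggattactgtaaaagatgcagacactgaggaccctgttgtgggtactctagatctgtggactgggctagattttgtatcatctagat
Gm41046: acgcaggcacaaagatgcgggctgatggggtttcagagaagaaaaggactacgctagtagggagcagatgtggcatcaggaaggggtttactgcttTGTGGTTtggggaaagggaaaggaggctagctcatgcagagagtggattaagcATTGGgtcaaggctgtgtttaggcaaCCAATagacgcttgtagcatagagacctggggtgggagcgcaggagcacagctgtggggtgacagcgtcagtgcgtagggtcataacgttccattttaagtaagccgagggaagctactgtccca
The Gm11205 window spans chr11:79704320-79704619 (plus strand), has 74% G or C and holds 8 SP/KLF matches. The 2810410L24Rik window (chr11:120189807-120190106, minus strand) has 74% G or C, with 5 SP/KLF matches, an E-box and a CCAAT box. The Gm32046 window (chr11:68432036-68432335, minus strand) holds 3 SP/KLF matches, and its peak also overlaps the start window of the coding gene Pik3r5. The 8030442B05Rik window (chr2:11398451-11398750, minus strand) holds 1 AP-1 match. The Jpx window (chrX:103493308-103493607, plus strand) holds 2 SP/KLF matches and an E-box, of which the E-box lies outside the peak. The 1700064M15Rik window (chr12:99627925-99628224, minus strand) has 70.7% G or C, with 2 SP/KLF matches and an E-box. The Gm51458 window (chr7:127636864-127637163, plus strand) has 52% G or C and 2 SP/KLF matches. The Gm40913 window (chr13:37333475-37333774, plus strand) has 40.3% G or C, no CpG, a PU.1 match and a CCAAT box. The Gm41046 window (chr13:102665952-102666251, minus strand) holds a RUNX match and 2 CCAAT boxes. Peaks covered all 300 bases in 7 of the 9 windows, 242 bases of the Gm51458 window and 146 of the Jpx window. A match describes letters and is not evidence of binding.

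The peak with the lowest p-value of the whole cKO list was a member. All p-values and signals given here are the authors' own values per peak, with no unit stated for the signal. It lay at chr11:79704021-79705007, with its midpoint 56 bp upstream of the 445 bp gene Gm11205 and 6498 bp from Rab11fip4, which encodes an effector of Rab11 recycling endosomes. The authors' signal was 38.2, their p-value 0.00574 and their adjusted p-value 0.194. The cWT list also held a peak here, at chr11:79703524-79704199 with signal 32.1 and p-value 0.159, centred 709 bp upstream of the same gene. The 2 peaks share 179 bp, the longest overlap between a cKO-specific and a cWT-specific member, and the cWT peak ends short of the start window printed above. Gm11205 therefore had open chromatin in both lists, with the cKO peak over the start and the cWT peak before it.

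Among cKO-specific members the next lowest p-value, 0.0184, belonged to a 1050 bp peak inside Gm2848 (chr13:52571971-52573020, signal 31.9), 10115 bp from Syk, the kinase downstream of immunoreceptors. A 725 bp peak inside Gm51814 (chr10:19062864-19063588, p-value 0.0884, signal 24.0) lay 47816 bp from Tnfaip3, which encodes the NF-kB inhibitor A20. The peak nearest Gm33926 (p-value 0.0871) lay 68471 bp from Mef2a, a transcription factor active in microglia. The other members among the 8 lowest were nearest Gm39822 (p-value 0.0745, by Cdkn2aipnl), Gm40434 (p-value 0.0971, by the small GTPase gene Arf6), Gm19510 (p-value 0.0992, by the pseudokinase gene Trib1) and Gm38629 (p-value 0.106, by Knstrn). Their distances to the coding gene ran from 9182 bp for Knstrn to 87965 bp for Trib1. Low p-values in the cKO list thus occurred both at lncRNA gene ends and far from any coding gene.

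On the cWT side the lowest p-value, 0.0114, belonged to the peak over the start of 1700064M15Rik (chr12:99627650-99628288, signal 35.9, adjusted p-value 0.279), 64226 bp from Efcab11. Its midpoint lay 5 bp from the gene's end, and its G- and C-rich window is printed above. The next was 6997 bp from Gm41758 (signal 54.5, p-value 0.0696) and 11625 bp from Malt1, the paracaspase of NF-kB signalling. A peak inside Gm32673 (chr6:125445776-125446068, signal 26.4, p-value 0.145) lay 14344 bp from Cd9, a tetraspanin gene. The cWT peak beside Gm11205 was the next. The lowest adjusted p-values over all members were 0.194 in the cKO and 0.279 in the cWT list. Whether these values test a difference between genotypes is not stated in the sources used here. The word "specific" below means placement in a list.

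Within 1000 bp of a lncRNA gene end, the lowest cKO p-values beyond these were 0.113 at 2500002B13Rik, 675 bp from Sap30 (a subunit of the Sin3 histone deacetylase complex), and 0.125 at 2810410L24Rik, 38560 bp from Slc38a10. The cWT ones were 0.443 at Gm32164, 74008 bp from Eed (a core subunit of the Polycomb repressive complex PRC2), 0.511 at Gm34847, 5490 bp from the mechanosensitive channel gene Piezo1, and 0.539 at Gm16348, 208 bp from Fgl1. The lists differ in length, so these lowest values are not compared between genotypes.

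Members took up the same share of both lists. They were 12.5% (11.8 to 13.2) of cKO-specific peaks and 12.5% (11.4 to 13.7) of cWT-specific peaks. The cKO list supplied 71.1% (68.8 to 73.4) of members, against 71.2% of all specific peaks, which is 2.46 cKO peaks (2.2 to 2.76) per cWT peak. The 2733 other intergenic peaks within the same distance of a coding gene, 2004 cKO and 729 cWT, gave a ratio of 2.75 (2.52 to 3.0). The odds ratio of cKO against cWT between members and these peaks was 0.896 (0.777 to 1.03), so the difference was within counting error. By chromosome the ratio among members ran from 1.53 on chromosome 19 (23 cKO and 15 cWT) to 4.2 on chromosome 4 (63 and 15). Peak widths were alike, with medians of 311 bp in cKO and 322 bp in cWT members, and the median authors' signal was 17.1 and 13.8, against 16.9 and 14.2 for the other intergenic peaks.

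Low p-values were less frequent among cWT-specific members than among the other intergenic cWT peaks. An authors' p-value of at most 0.5 was reached by 16 of 437 cWT members (3.66%, 2.11 to 5.88), against 6.16% of the whole cWT list and 53 of the 729 other intergenic cWT peaks (7.27%). The odds ratio against those intergenic peaks was 0.485 (0.255 to 0.875). In the cKO list 124 of 1076 members (11.5%, 9.68 to 13.6) reached it, against 12.1% of the whole list and 13.7% of the other intergenic peaks, an odds ratio of 0.822 (0.650 to 1.04). The cWT odds ratio was 0.435 (0.171 to 0.982) at a limit of 0.4, 0.751 (0.484 to 1.15) at 0.6 and 0.709 (0.504 to 0.990) at 0.7, so at 0.6 its interval included 1. This comparison was chosen after values had been seen. The sources used here do not say what the authors' p-value tests. The median over members was 0.816 in the cKO and 0.891 in the cWT list.

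**Figure D1:**
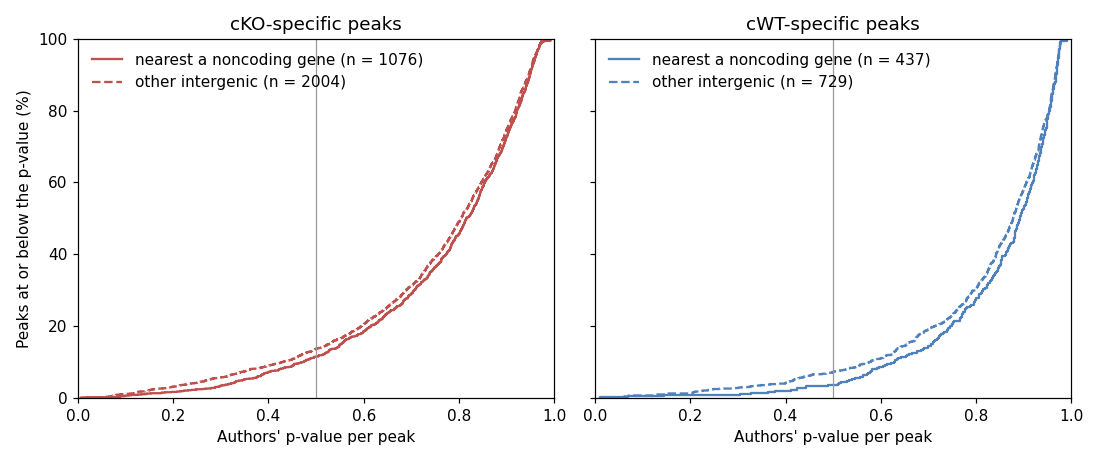
Cumulative share of peaks (y axis, percent) at or below each authors' p-value (x axis, 0 to 1) for members (solid) and other intergenic peaks within 100 kb of a coding gene (dashed), with cKO-specific peaks on the left and cWT-specific peaks on the right. At the grey line, a p-value of 0.5, the solid curve stands at 11.5% in cKO and 3.66% in cWT, and the dashed curve at 13.7% and 7.27%.

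Most members lay some distance from the lncRNA gene they were nearest to. The median distance from the midpoint to the gene end was 4248 bp in the cKO and 4400 bp in the cWT list, while the nearest coding end was 26049 bp and 30253 bp away. The rule itself places every member closer to a noncoding end than to a coding one. Within 1000 bp of the noncoding end were 240 cKO members (22.3%, 19.8 to 24.9) and 100 cWT members (22.9%, 19 to 27.1), an odds ratio of 0.967 (0.737 to 1.28). The other intergenic peaks lay within 1000 bp of their nearest gene end in 25.2% of cKO and 26.7% of cWT cases. Inside the span of the nearest lncRNA gene were 424 cKO members (39.4%) and 166 cWT members (38%), an odds ratio of 1.06 (0.840 to 1.34). Exons and introns are not distinguished here. The genotypes thus did not separate by distance or by position inside the gene beyond counting error.

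Where the gene's strand was listed, for 809 cKO and 335 cWT members, side could be read as well. Inside the gene were 39.1% of cKO and 38.8% of cWT members, upstream 30.3% and 26.9%, and downstream 30.7% and 34.3%. The odds ratio of cKO against cWT was 1.18 (0.883 to 1.59) for upstream and 0.846 (0.640 to 1.12) for downstream positions. A start window of the gene itself was overlapped by 66 of the 809 cKO members (8.16%) and 26 of the 335 cWT members (7.76%). Open chromatin at the annotated start was thus a minority of what these lists hold at lncRNA genes, in either genotype.

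**Figure D2:**
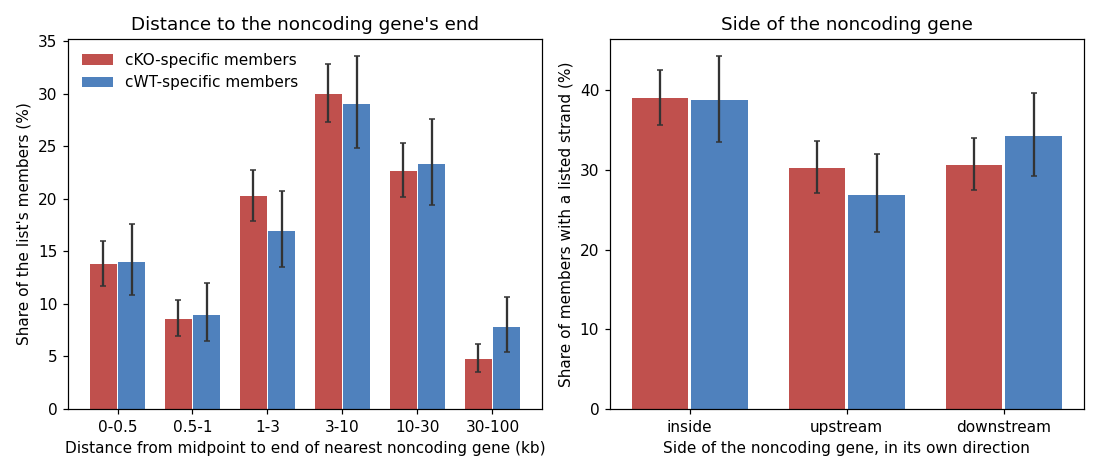
Left, share of members (y axis, percent of each list's members) by distance from the peak midpoint to the end of the nearest lncRNA gene (x axis, kb); right, share inside, upstream or downstream among the 809 cKO and 335 cWT members whose gene has a listed strand. Bars are cKO (red) and cWT (blue) and error bars are exact 95% intervals, which overlap in every pair. Such overlap is not a test of a difference. The 3 to 10 kb bin is the tallest in both lists.

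A few members sat on the shared start of a lncRNA and a coding gene. The rule for members leaves out midpoints inside a coding gene span or nearer to a coding end, which limits how many such members can occur. Leaving out chromosome 18, whose start windows were not used here, 9 of 1039 cKO members and 0 of 422 cWT members overlapped a coding gene's start window. A count of 0 allows a share of up to 0.711% by the limit of 3 counts and 0.870% by the exact interval, against 0.866% (0.397 to 1.64) in the cKO list, so a difference was not detectable at this number of peaks. In 6 of the 9 the same peak overlapped the lncRNA's window too. These pairs were Gm32046 with Pik3r5 (a regulatory subunit of PI3-kinase gamma), Zfp85os with the zinc finger gene Zfp65, Gm46732 with Dpp7 (a lysosomal peptidase), Gm31291 with Ier5l, Gm38875 with Hrh1 (the histamine H1 receptor) and Gm33587 with the phospholipid flippase gene Atp11a.

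The 7 motifs were counted in every start window. Windows overlapped by members were set beside the 11588 listed windows of 9533 lncRNA genes and the 32851 listed windows of 27025 genes of any kind. Shares of all lncRNA genes and of all genes, here and below, are of genes with a listed window. Members overlapped 100 windows of 89 genes, 71 windows of 64 genes for cKO and 30 windows of 26 genes for cWT. An overlap of 1 base was enough for a window to count, so the letters need not lie under the peak itself. The RUNX letters were present at 8 of the 26 genes whose windows cWT members overlapped (30.8%, 14.3 to 51.8). For cKO members they were present at 3 of the 64 (4.69%, 0.977 to 13.1). Of all lncRNA genes with a listed window 7.09% held them, and of all genes with one 6.09%. By window the shares are 33.3% and 7.04%, against 6.29% of lncRNA windows and 5.27% of all windows. RUNX1 is one of the transcription factors that shape microglia. The 8 cWT genes were 5830416I19Rik, Gm15411, Gm30078, Gm31482, Gm34489, Gm34766, Gm38612 and Gm41046, and they rest on few windows, some of which are alternative starts of 1 gene with overlapping letters. The authors' p-values of the cWT peaks there included 0.972 at Gm31482, 0.901 at Gm34489, 0.833 at Gm41046 and 0.710 at Gm30078.

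AP-1 letters, the site of Fos and Jun dimers, went the other way in number. They were at 9 of the 64 cKO genes (14.1%, 6.64 to 25) and 1 of the 26 cWT genes (3.85%, 0.0973 to 19.6), against 10.5% of all lncRNA genes and 8.97% of all genes, and the intervals overlap. By window AP-1 letters were in 9.31% of lncRNA and 7.81% of all windows. SP/KLF letters were at 24 cKO genes (37.5%, 25.7 to 50.5) and 4 cWT genes (15.4%, 4.36 to 34.9), against 18% of all lncRNA genes and 38.2% of all genes (16.3% and 35.7% of windows). The E-box was at 14 cKO genes (21.9%) and 3 cWT genes (11.5%), against 6.59% of all lncRNA genes and 8.09% of all genes (5.89% and 7.15% of windows). The PU.1 letters were in 2.82% of cKO, 10% of cWT, 3.33% of lncRNA and 3.20% of all windows, and the ETS letters in 5.63%, 10%, 3.89% and 8.86%. CCAAT was in 31.0% of cKO and 43.3% of cWT windows, against 36% of lncRNA and 37.4% of all windows. The median G and C content was 50.3% for cKO, 52.3% for cWT, 48.3% for all lncRNA and 56.3% for all coding windows. A motif of 5 to 8 letters also occurs by chance, and 7 motifs were compared in both lists.

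Members spread over 1128 lncRNA genes. Of these 865 had a cKO-specific member and 391 a cWT-specific one; 128 had both, which is 14.8% of the former and 32.7% of the latter. A single member was found at 838 genes, 2 at 215, 3 at 59 and 4 or 5 at 16. At least 2 cKO members and no cWT member were found at 139 genes, and the converse at 23. The cKO list supplied 71.1% of all members, and these counts were not compared with what that share alone would give. Nearly all of these genes have only a clone or model name, and no function is given for them here.

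Gm30561 and Gm33104 had 5 cKO members each and no cWT member. At Gm30561 (chr11:79305519-79326106), 3 cKO peaks lay in the first 2 kb of the gene, from 352 to 1700 bp past its start, and 2 lay 17897 and 18982 bp upstream. The nearest coding genes of these were Nf1, a negative regulator of Ras, and Wsb1, and the authors' p-values ran from 0.223 to 0.953. At Gm33104 (chr10:19486715-19507318), 4 cKO peaks lay inside and 1 lay 39998 bp downstream, with signals of 20.3, 8.69, 26.8, 26.8 and 23.2. All have Ifngr1, which encodes a chain of the interferon-gamma receptor, as nearest coding gene, at 44633 to 99969 bp. The farthest of them was the member closest to the 100 kb limit, and the closest peak beyond the limit that otherwise met the rule lay 100840 bp from a coding gene.

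Gm41046 held peaks of both lists around its start. A cWT peak (chr13:102665890-102666864, signal 23.4, p-value 0.833) covered the start window with the RUNX match, and cKO peaks flanked it at chr13:102665297-102665681 (signal 17.3, p-value 0.681) and chr13:102666791-102667070 (signal 15.9, p-value 0.559). The last overlapped the cWT peak by 74 bp. Further cKO peaks lay 12258 bp upstream and 16348 bp downstream. The nearest coding gene was Cd180, which encodes a Toll-like receptor relative of B cells and macrophages, 14830 to 48487 bp away.

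Gm30984, near the calmodulin gene Calm2, had 3 cWT members and 2 cKO members. A pair of adjoining cWT peaks of equal signal (22) crossed its start, and a cKO and a cWT peak about 9 kb upstream overlapped by 61 bp. Gm32673, near Cd9, had 3 cKO members of signal 13.3, 13.3 and 11.8 and the cWT member of signal 26.4 described above. At Gm38822 the counts were 1 cKO and 3 cWT, with Herc3 and Abcg2 as nearest coding genes. Gm31482 (by Rapgef5) and Gm35154 (by Prdm1, which encodes the repressor Blimp-1) had 2 of each. Gm34403 (by Zfp217) and Gm34542 (by Bcas1) had 3 cKO and 1 cWT. Gm14206 (by Eif1 and Krt42) and Gm36297 (by Hmcn1) had 4 cKO and 0 cWT. These are the 4 genes with 5 members and 8 of the 12 genes with 4, taken by their lowest p-value. The other genes with 4, named after their counts were seen, were Gm29856 (4 cKO), 9130221F21Rik (3 cKO and 1 cWT), D130051D11Rik (2 and 2) and 5830416I19Rik (1 and 3). Some of these counts include 2 adjoining peaks of equal signal, which may be counted as 1 region. Such pairs were cKO at Gm32673, Gm36297 and Gm29856, and cWT at Gm38822 and Gm35154. All 16 genes held 48 cKO and 20 cWT peaks, 11 had both genotypes and 5 had cKO peaks only. Over all members the counts were 1076 cKO and 437 cWT. Of the 1128 genes with a member, 128 had both genotypes, 737 cKO only and 263 cWT only.

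**Figure D3:**
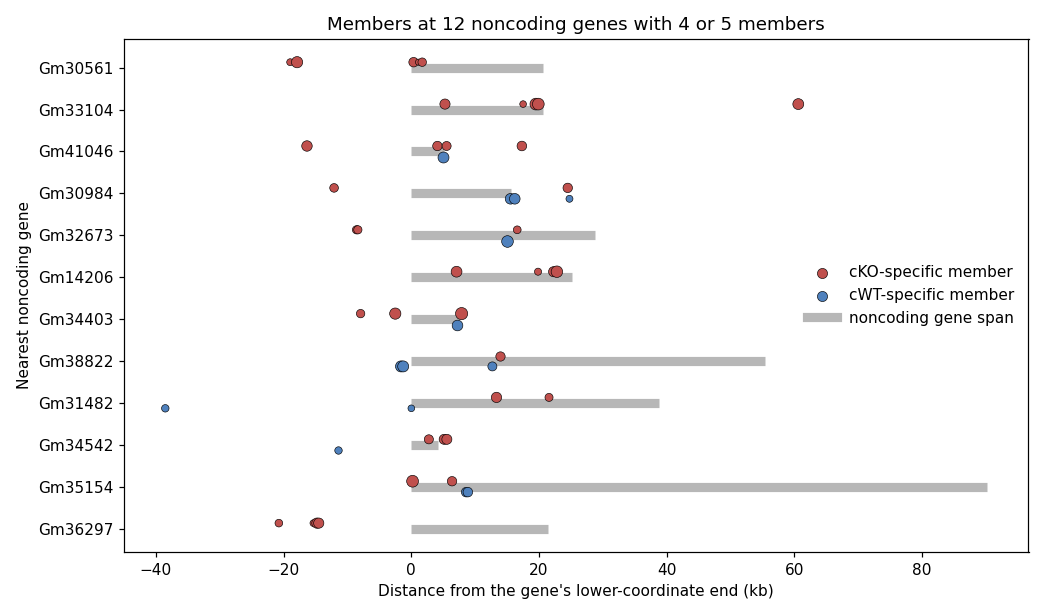
Members at the 4 lncRNA genes with 5 and at the 8 of the 12 genes with 4 that had the lowest p-values, each row a gene, with the distance of each peak's midpoint from the gene's lower-coordinate end on the x axis (kb), the gene span as a grey bar, and cKO-specific (red) and cWT-specific (blue) peaks as points whose area grows with the authors' signal. Gm30561, Gm33104, Gm14206 and Gm36297 carry red points only, and the other 8 rows carry both colours.

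Genes with cWT members only had fewer peaks each, and the cWT list supplied 437 of the 1513 members. What that share alone would give was not tested. Gm41818, between Abhd17b and Cemip2, had 3, with signals of 31.6, 9.09 and 13.9 and p-values of 0.363, 0.971 and 0.889. Gm46325 (by Nol10), Gm30078 (by Hmgb1, a chromatin and alarmin protein), Phf2os1 (by the histone demethylase gene Phf2), 1700083H02Rik (by Dact1) and Gm14488 (by 1700001O22Rik) had 2 each. At Gm46325, Gm30078 and Gm14488 the 2 peaks adjoined and carried equal signals of 27.9, 23.6 and 17.4, so each pair may be counted as 1 region. Over all members, 30 cKO and 11 cWT pairs adjoined with no gap, and all 41 such pairs had equal signals.

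**Figure D4:**
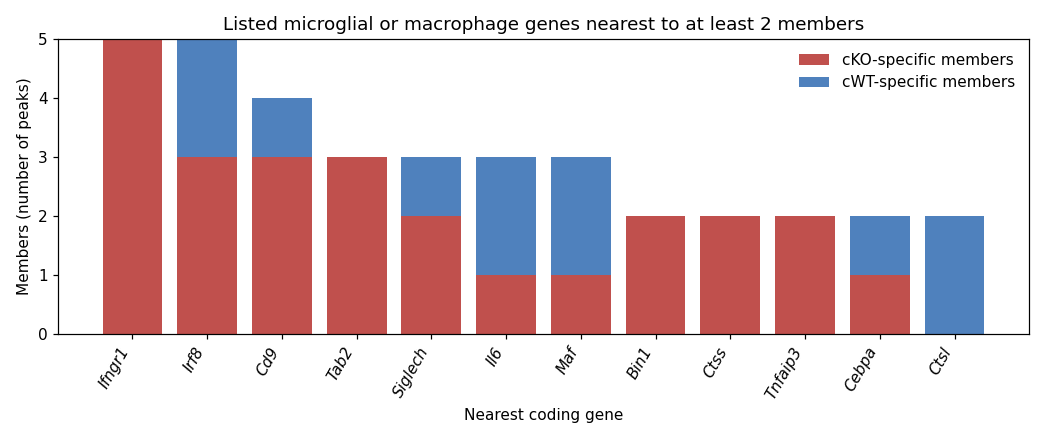
Number of members (y axis) whose nearest coding gene is a listed microglial or macrophage gene (x axis), for the 12 genes with at least 2 members, cKO-specific in red and cWT-specific in blue, stacked. Ifngr1 and Irf8 have 5 members each, Ifngr1 all cKO and Irf8 3 cKO and 2 cWT; Ctsl has cWT members only.

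Coding genes of microglial identity and activation were among the neighbours. Of 83 listed microglial and macrophage genes, 26 (31.3%) were the nearest coding gene of a member, with 36 cKO and 14 cWT peaks. Over all 21900 coding genes the share was 4.87%, and over 37 markers of neurons, astrocytes, oligodendrocytes, vessel cells and lymphocytes it was 5 of 37 (13.5%): Celf4, Gfap, Slc1a3 and Acta2 with 1 cKO peak each and Id4 with 1 cWT peak. By cell type these were 3 of 7 astrocyte markers (42.9%), 1 of 10 neuronal (10%), 1 of 6 vessel (16.7%), and none of the oligodendrocyte or lymphocyte markers. The astrocyte share was thus above the microglial one, on 7 genes. Of the 26, 16 had cKO members only, 4 cWT only and 6 both. Of the 1067 coding genes nearest to any member, 684 had cKO members only, 239 cWT only and 144 both. All members together were 1076 cKO and 437 cWT peaks. The lists were chosen with earlier results of these data known, and these counts describe them.

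Among transcription factors, Irf8, required for microglia to form, had 3 cKO and 2 cWT members over 3 lncRNA genes. The cKO ones lay nearest Gm39265 (chr8:120709278-120709508, 26965 bp from Irf8), Gm39266 (chr8:120763374-120763559, 6772 bp) and Gm33199 (chr8:120807232-120807612, 50728 bp), with signals of 18, 7.85 and 27.0. The cWT ones were both nearest Gm33199 (36803 and 64873 bp, signals of 19.4 and 8.12). Maf, a macrophage bZIP factor, had 1 cKO and 2 cWT members inside Gm39256, of which a cKO and a cWT peak overlapped by 6 bp (p-values 0.694 and 0.378). Cebpa had a cKO member by Gm35889 (signal 29.7, p-value 0.183) and a cWT member by Gm35724 (signal 7.32, p-value 0.952).

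Of surface and signalling genes, Siglech, a microglial lectin, had 2 cKO and 1 cWT members by Gm39015, and Cd9 had 3 and 1. Tab2, an adaptor of TAK1 signalling, had 3 cKO members by Gm30820 at 81459 to 99196 bp, with p-values of 0.900 to 0.956. Of these, 2 adjoined with equal signal and may be counted as 1 region. Tnfaip3 had 2 cKO members by Gm51814, and Bin1 had 2 by A830052D11Rik (p-values 0.346 and 0.702). The cytokine gene Il6 had 1 cKO and 2 cWT members by A230098N10Rik, of which 1 pair overlapped by 55 bp (signals 25.5 in cKO and 24.2 in cWT). Of lysosomal protease genes, Ctss had 2 cKO members by Gm40096 (signals 10.8 and 8.88, authors' p-values 0.902 and 0.865). Ctsl had 2 cWT members by Gm31128, adjoining at its start (signal 19.8 for both, authors' p-values 0.798 and 0.699). The Ctsl pair may be counted as 1 region.

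Coding neighbours outside that list, named after their counts were seen, included Zfp516 (6 cKO and 1 cWT), Zfp36l2 (6 and 0), Ly86 (5 and 2) and Rplp1 (5 and 0). Ly86 encodes MD-1, the partner of the Cd180 protein, and Cd180 itself had 4 cKO and 1 cWT members. At Ly86 the 7 peaks were spread over Gm40913, Gm4035, Gm40914 and Gm29590, from 11660 to 87135 bp. The cWT peak over the start of Gm40913, whose window holds the PU.1 match printed above, had an authors' p-value of 0.654. Zfp36l2, which encodes an mRNA decay factor, had its 6 cKO peaks by 4933433H22Rik and Gm19696, 3 by each. Those by Gm19696 lay 42696 to 64343 bp away, with authors' p-values of 0.657, 0.710 and 0.772.

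Well-studied noncoding genes were among the nearest genes too. Of the 65 annotated genes on 4 lists, 9 were the nearest gene of a member (13.8%, 6.53 to 24.7), against 8.86% of all annotated lncRNA genes. In the nuclear body and chromatin group these were 5 of 21 (23.8%, 8.22 to 47.2), each with 1 cKO member and no cWT member. The cKO list supplied 71.2% of all specific peaks, and 737 of the 1128 lncRNA genes with a member had cKO members only. Malat1, a nuclear speckle RNA, had a 913 bp peak 545 bp past its 3′ end (signal 10.2, p-value 0.824). Neat1, the scaffold of paraspeckles, had one 1280 bp outside its span (signal 8.98, p-value 0.712). Jpx, an activator of Xist in X inactivation, had a 628 bp peak over its start (chrX:103493462-103494089, signal 22.9, p-value 0.562), and Ftx of the same region had one inside the gene (signal 23.2, p-value 0.506). Pvt1, beside the oncogene Myc, had a 768 bp peak inside the gene (chr15:62057069-62057836, signal 34.9, p-value 0.133), the lowest p-value in the group.

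In the immune and inflammatory group 3 of 17 had members. Trp53cor1, the p53-induced lincRNA-p21 beside Cdkn1a, had 2 cKO and 1 cWT. Mirt1 had 1 of each, 19700 and 16382 bp past its 3′ end with signals of 15.7 and 15.9. Carlr, an lncRNA of NF-kB signalling, had 1 cKO (p-value 0.587), 14427 bp upstream. Of 15 snoRNA host genes only Snhg20 had members, 2 cKO (p-values 0.855 and 0.338) and 1 cWT (p-value 0.970), and of 12 microRNA host genes none did. On or off these lists, 8 nearest genes enclosed annotated microRNA genes: Carmn (Mir143 and Mir145a), E130102H24Rik (Mir101a), Ftx, Gm10505, Gm40302, Mir1a-1hg, Mirc35hg (Mir96, Mir182 and Mir183) and Snhg20.

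Genes with a given name, rather than a Gm, Rik or LOC symbol, had a lower ratio of cKO to cWT members than the rest, on 56 peaks. They were nearest to 32 cKO and 24 cWT members at 44 genes, a ratio of 1.33 (0.761 to 2.37). The other 1084 genes had 1044 cKO and 413 cWT members, a ratio of 2.53 (2.25 to 2.84). The odds ratio between these was 0.528 (0.297 to 0.949), and against the other intergenic peaks it was 0.485 (0.275 to 0.867). Genes with a curated transcript did not show a lower ratio: they took 29.6% of cKO and 27.0% of cWT members, an odds ratio of 1.13 (0.879 to 1.47). Among 13 alternatives of the balance against other peaks, only the restriction to given names had an interval that excluded 1. The intervals cover counting error only.

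A cKO-specific and a cWT-specific member overlapped in 24 pairs, which is 2.23% of cKO and 5.49% of cWT members. The median overlap was 38 bp, and 7 pairs shared at least 50 bp. In each pair both peaks had the same nearest lncRNA gene. Beyond Gm11205, the longest were 108 bp at Gm32018 (by Chst2), 90 bp at Gm41214 (by Nufip1) and 84 bp at Gm36377 (by Ice1). Little overlap follows from the lists' deposit as specific to 1 genotype, and the overlaps were at the peaks' edges.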

How the data were processed

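ATAC-seq was done on 6 libraries, 3 per genotype, and 2 lists of genotype-specific peaks were analysed. The submitters' processing notes name Bowtie2 2.4.4, MACS2 2.2.7.1 and HOMER 4.11 and the builds GRCm38 and mm10. The sources used here do not give the pooling of libraries, the choice of specific peaks or the test behind the p-value. The authors deposited for each peak a score, a signal value and a p-value, raw and adjusted, with a primary or secondary tier, identified from the layout and range of the columns. These are the authors' values and were used only to describe and rank peaks within a list. Depth is unknown, and 0 columns of per-sample values were left unmapped.

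From the coordinates, each peak's midpoint was set against gene spans of RefSeq GRCm38.p6, a table without exons, using pandas 2.3.3, scipy 1.17.1 and numpy 2.4.6 in Python 3.11.15, with figures by matplotlib 3.10.9. Adding a limit of 100 kb and the nearest gene end over all biotypes gave the members. The classification was tested on simulated peaks. Shares carry exact Clopper-Pearson 95% intervals and odds ratios exact conditional ones. Motifs were matched on both strands in start windows (250 bases before to 50 after), overlaps allowed; windows of chromosome 18 were not used here. A gene's start was known for 845 of the 1128 nearest genes.

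Named genes were those of the noncoding lists, the 12 with the most members (ties broken by lowest p-value), the 8 cKO and 5 cWT members of lowest p-value, the 5 of each within 1000 bp of a gene end, up to 6 genes with at least 2 cWT and no cKO member, up to 12 microglial neighbours, and their nearest coding genes. Genes named for shared start windows, overlaps, motifs or enclosed microRNAs, and coding neighbours outside the lists, were chosen after their values were seen. A single member within these criteria is not reported here. Members and lists were chosen with earlier results of these data known.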

Additional observations from a re-analysis of the deposited data

How the results depend on the processing

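The odds ratio of cKO against cWT peaks between members and other intergenic peaks was recomputed under 13 alternatives, of which 10 were planned and 3 were added after the data were seen. It ran from 0.485 to 1.5. It stayed below 1 in 12 of them, and its interval included 1 in all but the restriction to genes with a given name (0.485, 0.275 to 0.867). With only peaks of p at most 0.5 it rose above 1, to 1.5 (0.805 to 2.92), on 124 cKO and 16 cWT members. The share of members within 1000 bp of the noncoding gene end became 13.8% in cKO and 14.0% in cWT with a window of 500 bp, and 42.6% and 39.8% with 3000 bp, as a wider window must. With p at most 0.5 it was 25.8% and 18.8%, an odds ratio of 1.5 (0.378 to 8.75). The share inside the gene was then 31.2% in cWT, an odds ratio of 1.43 (0.427 to 5.6). These rest on 16 cWT peaks. Overlapping pairs numbered 7 instead of 24 at a minimum of 50 bp. In all, 12 of 38 alternatives moved a share or odds ratio beyond the interval of its first value, or a count by over 1.5 times. The lower share of cWT members at p at most 0.5 was found after the data were seen. Its odds ratio of 0.485 became 0.751 at a limit of 0.6, over 1.5 times higher and with an interval that includes 1. It was 0.463 against peaks nearest a coding gene, 0.545 against all other cWT peaks and 0.490 with neighbouring peaks merged, each with an interval below 1. No paired analysis was possible because no value is given for any single library, and no replicate could be left out for the same reason. Depth limits cannot be stated without counts.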

Other observations

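Members beside the 8 lncRNA genes that enclose microRNA genes had lowest authors' p-values per gene from 0.338 to 0.972. The lowest was at Snhg20, which encloses Mir6516 and had 2 cKO members and 1 cWT member. Carmn, which encloses Mir143 and Mir145a of smooth muscle, had 1 cKO member (lowest p-value 0.855), and E130102H24Rik, which encloses Mir101a, had 2 (0.752). Mirc35hg, which encloses the sensory-cell cluster of Mir96, Mir182 and Mir183, had 1 cWT member (0.972), and so did Mir1a-1hg (0.849), which encloses the muscle microRNA genes Mir1a-1 and Mir133a-2. Ftx encloses 3 microRNA genes (Mir374b, Mir374c and Mir421) and had 1 cKO member (0.506).

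Further microglial and macrophage genes were the nearest coding gene of a single member each. In the cKO list these included the transcription factor genes Mef2a, Bach1, Bach2, Klf6, Klf7 and Zeb2, the receptor gene Tgfbr2, the lipid exporter gene Abca1, the phosphatase genes Dusp1 and Dusp6, and Selplg. In the cWT list they included the transcription factor gene Cebpb and the protease gene Ctsb.

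At the ribosomal protein gene Rplp1, 5 cKO members and no cWT member lay by Gm34974 and Gm35058, 6136 to 27189 bp away, with authors' p-values of 0.725 to 0.933. On chromosome 2 the members numbered 91 cKO and 50 cWT, a ratio of 1.82 (1.28 to 2.62), and on chromosome 10 they numbered 86 and 24, a ratio of 3.58 (2.26 to 5.89). Over the other intergenic peaks these chromosomes had ratios of 2.46 and 2.24. The cause was not tested.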
